A study of Saccharomyces cerevisiae with 2 samples.

Results

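The 38 genes described here encode the protein translocation channel of the endoplasmic reticulum (ER), the COPI and COPII vesicle coats, and the fusion factors and cargo receptors that work with them in the budding yeast *Saccharomyces cerevisiae*. They were chosen by function and gene symbol out of 5094 genes probed, by a rule that uses no measured value but was set with earlier results of these data known, and fall into 5 classes: translocon (8 genes), COPI (9), COPII (7), SNARE and fusion factors (8) and cargo receptors (6). All 38 had probes, and 26 had a value on both arrays. The data come from a genetic interaction mapping (GIM) screen, in which a deletion is combined with a pool of barcoded mutants and the barcodes are counted by hybridisation. DAmP strains, which carry a gene with lowered mRNA level, were combined with a query deletion, and the haploid double mutants, derived from BY4742/BY4741, grew for 18 generations in G418 and nourseothricin. Barcodes of this query pool carried Cy3, and those of a reference GIM pool of haploid strains from the same background carried Cy5. Each of the 2 experiments, described as independent, was read on its own Agilent array, and both arrays form a single group with the same query. Sample titles name *PIH1*, a subunit gene of the R2TP co-chaperone of HSP90, as the query, whereas descriptions and source names give *RSA1*, a snoRNP assembly factor gene. A pool mixes all strains in 1 culture, and a DAmP allele lowers a gene product without removing it. Probes name genes only, so a value cannot be assigned to a DAmP allele or to another allele of that gene.

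Secreted and membrane proteins enter the ER through the Sec61 channel, either during translation with the help of the signal recognition particle (SRP) or afterwards with the Sec62-Sec63 complex and the luminal Hsp70 Kar2. COPII-coated vesicles then carry cargo from the ER to the Golgi, and COPI-coated vesicles return escaped proteins and receptors to the ER. Vesicles fuse with their target through SNARE proteins, which the ATPase Sec18 and its adaptor Sec17 recycle. Many of these genes are essential in yeast, which is the reason that screens of them use lowered expression in place of deletion.

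Values are log ratios, read as log2 (the base is not stated, and a natural log cannot be told apart) and centred on each array's median, so that 0 is the typical probe and 1 unit is a doubling. Positive values likely mean more double mutants in the query pool than in the reference pool. The basis is linkage, as few recombinants form near a query deletion. The 10 genes around *PIH1* (the 5 nearest measured genes on each side) had a median of -2.07 on array 1 and -1.48 on array 2. Those around *RSA1* had medians of -0.078 and 0.038. All 10 genes around *PIH1* were below 0 on both arrays, against 3 of the 10 around *RSA1*. The low region thus lay at the query named by the titles. Among 4048 genes with values on both arrays and outside the regions of *PIH1* and *RSA1*, the median was -0.0072, with quartiles of -0.23 and 0.35. Values on array 2 were spread more widely, with a median absolute deviation of 0.63 against 0.35 over probes, in units of an SD. Errors below are SDs over the 2 arrays, which the labels do not tie to separate cultures, so part of the spread may be technical.

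*SEC61* had by far the highest ratio of the 26 measured genes, the COPI genes *COP1* and *SEC27* followed, and the translocon gene *SEC72* had the lowest. None of these passed the test across all genes. Limma called 0 of 4048 genes lower (0%) and 0 higher (0%) at an adjusted p of 0.05, so it called 0 of the 26. At an unadjusted p under 0.05, 4.97% of all genes were lower and 11.8% higher, while of the 26 genes here 1 was lower (*SEC72*) and 3 were higher (*SEC61*, *SEC27* and *COP1*). These shares of the 26 genes lie near the background.

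**Figure D1:**
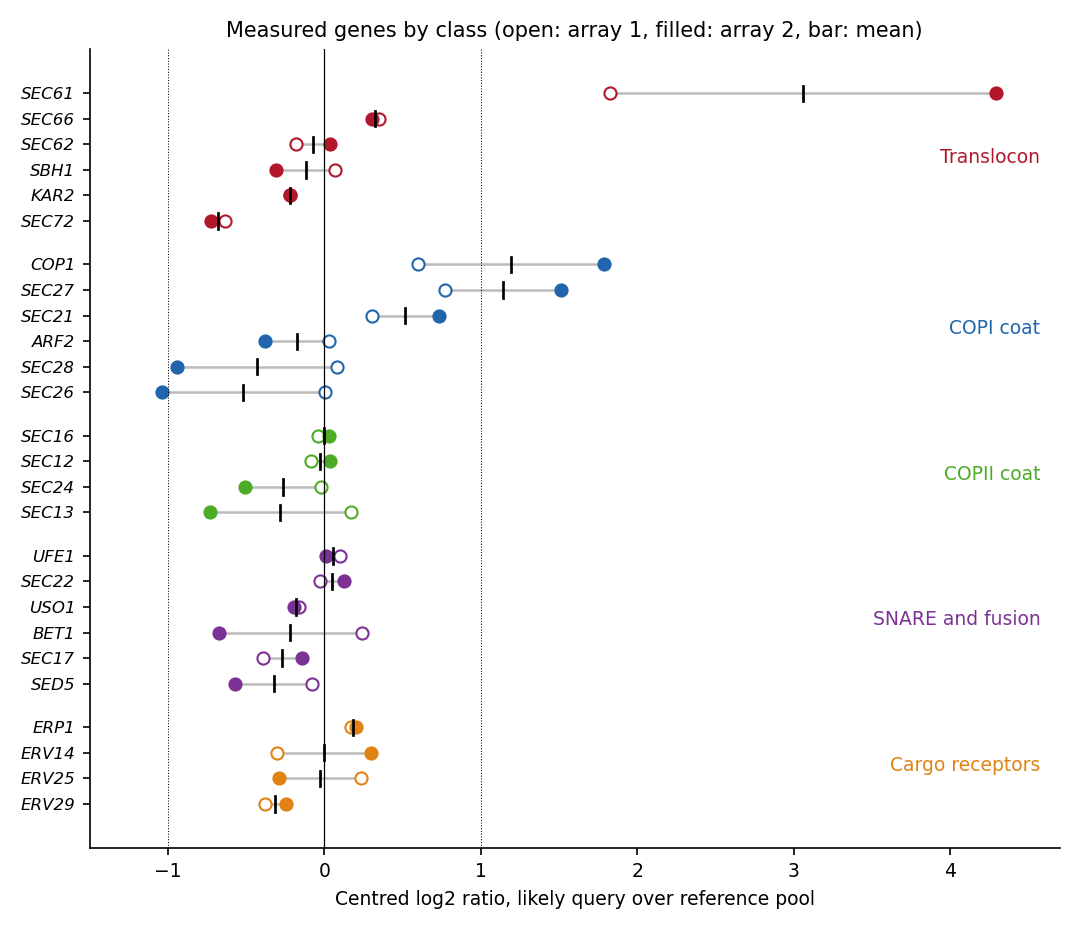
Centred log2 ratio on array 1 (open circles) and array 2 (filled circles) for the 26 measured genes, grouped by class, with the mean of both arrays as a black bar and dotted lines at -1 and 1. *SEC61* lies above 1 on both arrays, and no gene lies below -1 on both.

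In the translocon class, *SEC61*, which encodes the pore-forming subunit of the channel, had a ratio of 1.83 on array 1 and 4.29 on array 2, or 3.06 ± 1.74 (SD, n = 2), a ratio 8.35-fold above the array median. Both values are in the top 2% of genes, at percentiles 98.0 and 98.6 of the 4048 genes. By mean it ranked 67 from the top. Each array gave this value from a single probe, as the other *SEC61* probe had no value on either array, so probes cannot be compared for this gene. Its limma interval ran from 0.85 to 5.28 (95%, adjusted p = 0.251). The arrays were on the same side of 0 but differed by 2.47 log2 units, the widest gap among these 26 genes.

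The channel's small subunit gene *SBH1*, encoding the Sec61-beta homolog, did not share the high ratio. Its values were 0.067 and -0.31 on arrays 1 and 2, a mean of -0.12 ± 0.27. *SEC61* exceeded it by 1.76 on array 1 and by 4.60 on array 2. *SSS1*, the gene of the third channel subunit, had 4 probes and no value. The channel was therefore represented by these 2 genes alone, and they lay far apart on both arrays. The difference was not tested.

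The genes of the Sec62-Sec63 complex, which adds post-translational substrates to the channel, also differed from each other. *SEC72*, encoding a peripheral cytosolic subunit, stood at -0.64 on array 1 and -0.73 on array 2, a mean of -0.68 ± 0.064. Its 2 probes lay within 0.064 of each other on array 1 and within 0.027 on array 2. It was the lowest of the 26 genes by mean, at percentile 6.13 of all genes, and its interval ran from -1.25 to -0.11 (limma adjusted p = 0.268). *SEC66*, which encodes the membrane subunit that binds Sec72, stood at 0.35 and 0.31, a mean of 0.33 ± 0.029. The ratio of *SEC66* was higher than that of *SEC72* by 0.98 on array 1 and by 1.03 on array 2, a difference larger than the gap between arrays for either gene; the difference itself was not tested. On array 2, however, 1 of the 4 *SEC66* probes was at -0.38 and the other 3 were between 0.52 and 0.55. *SEC62*, encoding a membrane subunit that contacts signal sequences, was near 0 (-0.18 and 0.035), and *SEC63*, the gene of the J-domain subunit that recruits Kar2, had no value. *KAR2* itself, encoding the Hsp70 that pulls chains into the lumen, stood at -0.22 on both arrays, from 1 probe on each.

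**Figure D2:**
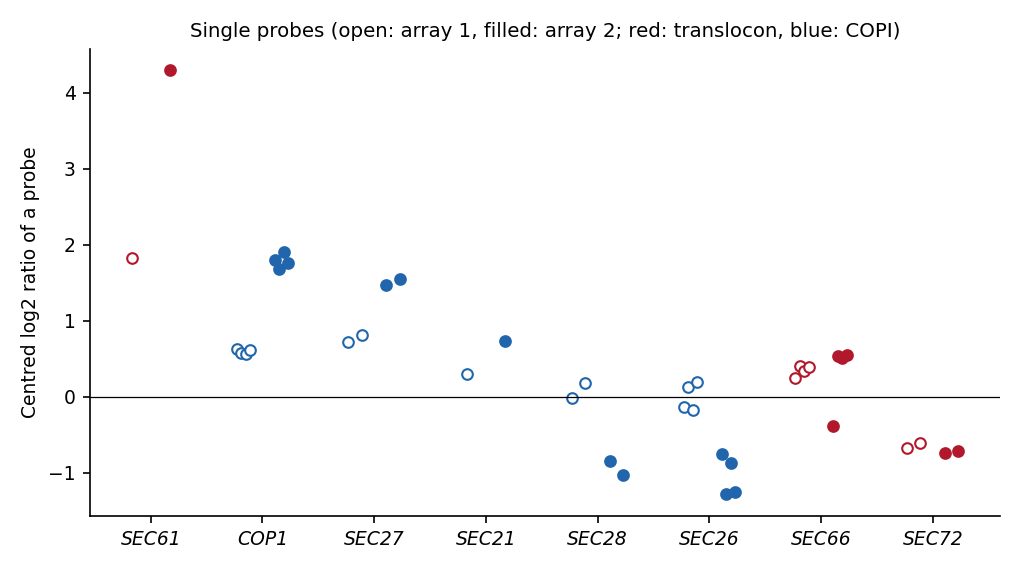
Centred log2 ratio of each probe with a value for 3 translocon genes (red) and 5 COPI genes (blue), on array 1 (open) and array 2 (filled). The 4 probes of *COP1* lie close together on each array, *SEC61* has a single probe, and 1 probe of *SEC66* departs from its other 3 on array 2.

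The COPI genes covered both sides of 0. *COP1*, encoding alpha-COP, had a ratio of 0.60 on array 1 and 1.79 on array 2, a mean of 1.19 ± 0.84 (2.28-fold above the array median). *SEC27*, encoding beta-prime-COP, stood at 0.77 and 1.51, a mean of 1.14 ± 0.52 (2.20-fold). Alpha-COP and beta-prime-COP together form the outer layer of the coat, and the ratios of their genes differed by 0.17 on array 1 and by 0.28 on array 2, with the larger value in *SEC27* on array 1 and in *COP1* on array 2. Probes of a gene were close: 4 *COP1* probes spanned 0.076 on array 1 and 0.23 on array 2, and 2 *SEC27* probes spanned 0.10 and 0.076. The limma intervals ran from 0.016 to 2.37 for *COP1* (adjusted p = 0.294) and from 0.29 to 1.99 for *SEC27* (adjusted p = 0.252).

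*SEC28*, encoding epsilon-COP, a nonessential subunit that binds alpha-COP, had lower ratios than *COP1* and *SEC27* on both arrays. It stood at 0.081 on array 1 and -0.94 on array 2, a mean of -0.43 ± 0.72. *COP1* exceeded it by 0.52 on array 1 and by 2.73 on array 2, and *SEC27* by 0.69 and 2.45. These differences were not tested. The limma interval of *SEC28* ran from -1.48 to 0.62 (adjusted p = 0.604) and overlapped those of *COP1* and *SEC27*. Genes of the inner layer of the coat also had unlike means, a difference that was not tested. *SEC21*, encoding gamma-COP, had positive values of 0.30 and 0.73 from 1 probe on each array, a mean of 0.52 ± 0.30. *SEC26*, encoding beta-COP, was near 0 on array 1 (0.0017) and low on array 2 (-1.04), a mean of -0.52 ± 0.74. The limma intervals of *SEC21* (-0.16 to 1.19) and *SEC26* (-1.58 to 0.55) overlapped. All 4 *SEC26* probes lay between -1.29 and -0.75 on array 2 and between -0.18 and 0.20 on array 1, so its arrays differed by more than its probes did. *SEC28* and *SEC26* thus had nearly the same values on each array, apart by 0.079 and 0.098, and neither had a sign on array 1 that held on array 2.

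The remaining COPI genes were scarcely measured. *ARF2*, which encodes a small GTPase that recruits the coat to Golgi membranes, stood at 0.030 and -0.38. *ARF1*, the gene of its more abundant paralog, *RET2* (delta-COP) and *RET3* (zeta-COP) had probes without a value. Of 6 measured COPI genes, 3 were above 0 on both arrays (34.7% of all genes), and the other 3 had opposite signs (31.4% of all genes).

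None of the 4 measured COPII genes was more than 0.5 away from 0 by mean. *SEC12*, encoding the exchange factor that loads Sar1 with GTP and starts coat assembly, stood at -0.089 and 0.034, and *SEC16*, which encodes a scaffold of ER exit sites, at -0.038 and 0.028. Their limma intervals ran from -0.60 to 0.54 and from -0.57 to 0.56, and *SEC16* was read by 1 probe on each array. *SEC24*, encoding the subunit that selects cargo, stood at -0.023 and -0.51, and *SEC13*, of the outer cage, at 0.17 and -0.73. The latter pair was lower on array 2 only, each from 1 probe. *SAR1*, the gene of the small GTPase, *SEC23*, whose product activates GTP hydrolysis by Sar1, and *SEC31*, whose product forms the outer cage with Sec13, had no value. *SAR1* also lies within the *RSA1* region kept out of the tests.

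SNARE and fusion genes likewise stayed within 0.5 of 0 by mean. *SED5*, encoding the Golgi syntaxin, stood at -0.079 and -0.57 (mean -0.33 ± 0.35). *SEC17*, the gene of alpha-SNAP, was below 0 on both arrays, at -0.39 and -0.15, although its 4 probes on array 2 ran from -0.54 to 0.30. *BET1*, encoding an ER-to-Golgi SNARE, changed sign between the arrays, from 0.24 to -0.67. The other 3 genes differed between arrays by less than 0.2: the tether gene *USO1* stood at -0.16 and -0.19, *UFE1*, the ER syntaxin gene, at 0.10 and 0.011, and *SEC22*, whose SNARE works in both directions of transport, at -0.027 and 0.13. *SEC18*, the NSF gene, and *BOS1*, a SNARE gene of ER-to-Golgi vesicles, were without a value.

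Among cargo receptors, *ERV29*, whose product sorts soluble cargo into COPII vesicles, was lowest, at -0.38 on array 1 and -0.25 on array 2 (mean -0.31 ± 0.095). *ERP1*, a p24-family gene, was the most even, at 0.17 and 0.20, and its 4 probes were positive on both arrays. *ERV14*, encoding a receptor for membrane proteins, and *ERV25*, of the p24 family, changed sign in opposite ways, from -0.30 to 0.30 and from 0.23 to -0.29. The p24 genes *EMP24* and *ERP2* had no value, so the p24 complex was represented by *ERP1* and *ERV25*.

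**Figure D3:**
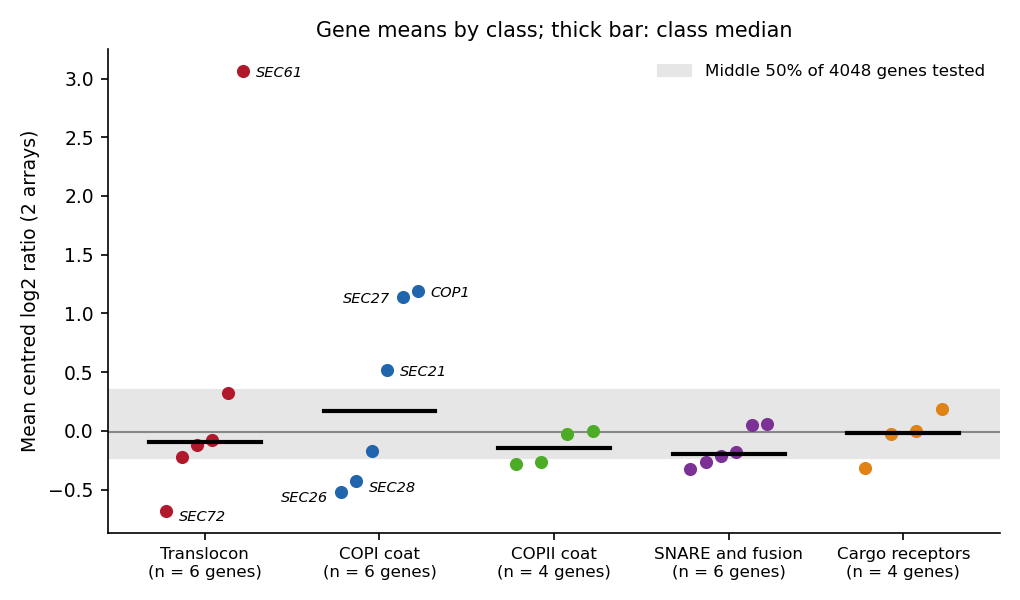
Mean centred log2 ratio of each measured gene by class, with class medians as thick bars, the median of all 4048 genes tested as a grey line and their middle 50% as a grey band. Class medians run from -0.20 to 0.17 and lie within the band, while *SEC61*, *COP1*, *SEC27* and *SEC21* lie above it.

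By class, the median ratio was 0.17 for COPI (0.19 on array 1 and 0.18 on array 2), -0.015 for cargo receptors (-0.067 and -0.023), -0.098 for the translocon (-0.059 and -0.093), -0.15 for COPII (-0.031 and -0.24) and -0.20 for SNARE and fusion genes (-0.053 and -0.17). COPI had the highest median on both arrays. Its median by mean falls in a gap, as no COPI gene had a mean between -0.18 (*ARF2*) and 0.52 (*SEC21*). Its median was above that of COPII by 0.22 on array 1 and 0.41 on array 2, above SNARE genes by 0.24 and 0.35, above the translocon by 0.25 and 0.27, and above cargo receptors by 0.26 and 0.20. Of the 10 pairs of classes, these 4 had a difference of the same sign on both arrays. These differences are smaller than the spread of genes within COPI (SD over genes 0.77), and no test was made, since genes of a class are not replicates and an exact two-sided sign-flip test over 2 arrays cannot go below p = 0.5. The range of gene means, over 4 to 6 genes a class, was not tested between classes: means ran from -0.68 to 3.06 in the translocon and from -0.52 to 1.19 in COPI, against -0.28 to -0.0050 in COPII, -0.33 to 0.057 in SNARE genes and -0.31 to 0.19 in cargo receptors. The SD over genes was 1.35 in the translocon and 0.77 in COPI, against 0.87 over all genes tested. Without *SEC61*, a single-probe gene, the translocon ran from -0.68 to 0.33 with a median of -0.12 and an SD of 0.36.

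Over all 26 genes the median was -0.098, against -0.0072 over all genes tested. Both arrays were below 0 for 7 of the 26, or 26.9%, against 33.9% of all genes. Both were above 0 for 7, or 26.9%, against 34.7%. The signs were opposite for 12, or 46.15%, against 31.4%. The mean lay within 0.5 of 0 for 20 of the 26, or 76.9%, against 70.1% of all genes. At or above 1 on both arrays there was 1 gene, *SEC61*, against 6.4% of all genes, and at or below -1 there were 0, against 2.03%. By mean, most of these genes thus sat where most genes of the screen sat. Opposite signs on the arrays were more frequent than over all genes, a difference that was not tested. Across the 26 genes, which share both pools and both arrays, Pearson's r between arrays was 0.832 and Spearman's rho 0.333 (0.762 and 0.595 over all genes). The value of r rested on the highest genes. No matching removal was made over all genes, so the fall below cannot be called particular to this set. Without *SEC61*, r was 0.574 and rho 0.249. Without *SEC61*, *COP1* and *SEC27*, they were 0.158 and 0.037 over 23 genes.

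Genes whose deletion is known to be lethal had probe values on both arrays for 16 of 25, and genes with viable deletions for 10 of 13, compared with 82.4% of all genes probed. The medians were -0.13 and -0.074. All 4 genes with a mean above 0.5 (*SEC61*, *COP1*, *SEC27* and *SEC21*) were essential, but so were 16 of the 26 measured genes. At the low end *SEC26* was essential, whereas *SEC72* and *SEC28* are viable as deletions. A link between essentiality and ratio was not tested. Means spanned -0.52 to 3.06 among essential genes and -0.68 to 0.33 among viable ones.

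Scaling between the arrays decided whether the highest genes were called. With both arrays brought to the same median absolute deviation, limma called 2.3% of all genes lower and 8.97% higher. *SEC61* (adjusted p = 0.0124) and *SEC27* (0.0322) were then called higher, *COP1* missed (0.0533), and 0 of the 26 were called lower (*SEC72*, adjusted p = 0.103). After quantile normalization 1.85% of all genes were called lower and 8.87% higher, and *SEC61* (0.0119), *SEC27* (0.0318) and *COP1* (0.0437) were called higher. Counts of 2 and 3 among 26 genes, or 7.69% and 11.5%, are close to these backgrounds.

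Other genes of the early secretory pathway were taken from 9 lists by function, 71 genes in all, of which 51 could be tested. Limma called 0 of these. A ratio of 1 or more on both arrays was found for 4, or 7.84% of the 51, against 6.4% of all genes: *YIP1*, *SSH1*, *SRP21* and *LHS1*. This share is near the background. None was at or below -1 on both, and the median over the 51 was 0.029.

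*SSH1* encodes the pore subunit of an alternative translocon, a paralog of Sec61 that handles co-translational substrates. Its ratio was 1.67 on array 1 and 1.93 on array 2 (mean 1.80 ± 0.19, interval 1.19 to 2.41, limma adjusted p = 0.227), with 4 probes on each array between 1.59 and 2.22. *SSH1* is described because it passed the limit of 1 on both arrays, so its high ratio is not a separate result about pore genes. *SEC61* lay above *SSH1* by 0.16 on array 1 and by 2.36 on array 2. *SBH2*, the gene of the Sbh1 paralog in that translocon, stood at 0.39 and 0.0021, below *SSH1* on both arrays, although its 2 probes on array 2 were apart, at 0.51 and -0.51.

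*LHS1*, which encodes a luminal Hsp70 that exchanges nucleotide on Kar2, stood at 1.64 and 1.25 (mean 1.44 ± 0.28, limma adjusted p = 0.230), from 1 probe on each array. Its ratio was above that of *KAR2* by 1.86 on array 1 and by 1.47 on array 2. *SIL1*, the gene of the other exchange factor of Kar2, was near 0, at 0.043 and -0.14, and *JEM1* and *SCJ1*, the luminal J-domain genes, had means of 0.30 and -0.42. Of 9 measured genes for ER lumen chaperones and oxidoreductases, 4 were positive and 4 negative on both arrays, against 34.7% and 33.9% of all genes. Their median was -0.048 (0.043 by array 1 and -0.14 by array 2).

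In the SRP list, *SRP21*, encoding a subunit of the particle, had ratios of 1.10 and 1.85 (mean 1.47 ± 0.53, limma adjusted p = 0.234). *SRP54*, the gene of the subunit that binds signal sequences, stood at 0.12 and 0.60, and the genes of both subunits of the SRP receptor had means of 0.070 and 0.029. The median of 5 tested SRP genes was 0.36 (0.12 on array 1 and 0.60 on array 2), and 3 were positive on both arrays, against 34.7% of all genes. *YIP1*, encoding a membrane protein that takes part in COPII vesicle formation, stood at 1.64 from 1 probe on array 1 and 3.17 from 2 probes on array 2 (mean 2.40 ± 1.08, limma adjusted p = 0.235), while *YIF1*, the gene of its binding partner, stood at 0.079 by mean.

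The medians of the other lists moved with the array. Genes of ARF exchange factors and ARF GTPase activators, which switch the GTPase that recruits COPI, numbered 5, with a median of -0.29 (array 1 gave -0.11 and array 2 -0.51). COPII paralogs and regulators had a median of 0.079 over 7 (0.044 and 0.26), the Dsl1 tether and further SNARE genes 0.12 over 8 (0.25 and 0.17), and further cargo and retrieval receptors -0.091 over 13 (-0.098 and -0.26). Signal peptidase and the unfolded protein response had 1 tested gene each, *SPC2* at -0.23 and *HAC1* at -0.19 by mean. With the arrays on the same scale, 3 of the 51 genes, or 5.88%, were called higher (*YIP1*, *SSH1* and *SRP21*), against 8.97% of all genes. After quantile normalization there were 4, or 7.84% (these and *GOS1*, a Golgi SNARE gene), against 8.87%, and 0 were lower each time. Neither share exceeds its background.

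**Figure D4:**
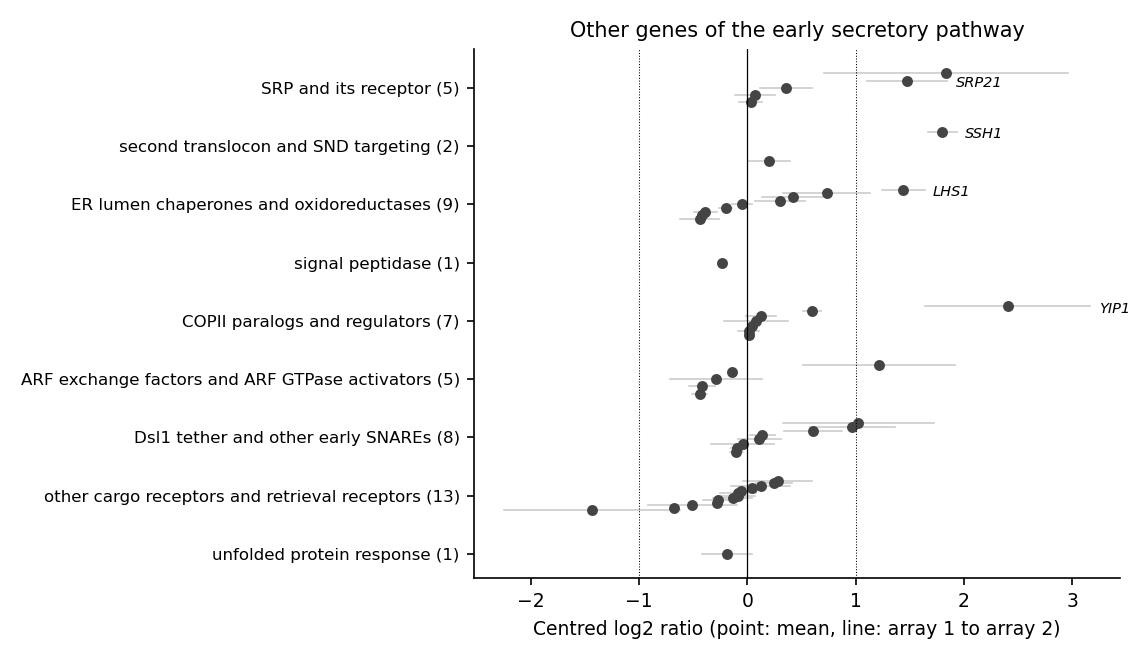
Mean centred log2 ratio (points) and the span from array 1 to array 2 (lines) for 51 other genes of the early secretory pathway, by list, with the number of genes in parentheses and dotted lines at -1 and 1. *YIP1*, *SSH1*, *SRP21* and *LHS1* lie above 1 on both arrays.

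Ratios of the genes beside these on the chromosome differed from locus to locus. The 10 genes around *SEC61* (the 5 nearest measured genes on each side) had a median of -0.14 on array 1 and -0.024 on array 2. Its immediate measured neighbours *FBP1* and *CSR1* stood at -0.049 and -0.21 by mean. Around *COP1* the medians were -0.0026 and 0.20, and around *SSH1* -0.15 and -0.0090. Single neighbours were high in some places: *DGR2*, next to *SRP21*, stood at 4.53, *MUD2*, next to *LHS1*, at 2.83, and *MSM1*, next to *YIP1*, at 1.48. The neighbours of *COP1*, *LDB17* and YDL144C, stood at 0.96 and 0.53, *MRPL27*, next to *SSH1*, at 0.90, and *MRM2*, next to *SEC27*, at 0.76. Around *SEC27* the medians were 0.23 and 0.58, below the gene's own 0.77 and 1.51. Around *SEC21*, at 0.30 and 0.73, they were -0.26 and -0.31, with *CAF40* at -0.98 and *MRPL10* at 1.74 beside it. Around *SEC66*, at 0.35 and 0.31, they were 0.20 and 0.97. The part of neighbouring loci in the values of these genes was not tested.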

How the data were processed

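Each deposited value is the log ratio between the channels of a 2-colour Agilent array for a probe; the values were read as log2 because they run from -6.36 to 9.40, too wide for a log10 ratio, but a natural log cannot be told apart. The sources used here do not give the normalization, centring, direction or filters of the deposited values, here taken as log2, and intensities were not used. Of 15744 probes, 10998 had a value on array 1 and 10382 on array 2, and 13084 had 1 gene symbol, 2660 none and 0 several in the platform annotation. Symbols were updated through the R64 gene table, which served only for names and neighbours; *SBH1* was matched by a synonym.

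Each array was centred on its median (-0.065 and -0.27 before), and probes were averaged per gene. Genes with both values, except 148 within 100 kb of *PIH1* or *RSA1*, entered limma 3.58.1 (R 4.3.3; intercept, eBayes, against 0), adjusted by Benjamini-Hochberg over 4048 genes. Spread within the reference pool does not enter this test. The script was also run on simulated data with the same spread on both arrays. The real arrays differ in spread, so that run does not bear on the absence of calls. Python 3.11.15, numpy 2.4.6, pandas 2.3.3 and matplotlib 3.10.9 were used. Every listed gene was named if it had a value, the 5 lowest and 5 highest by mean were given per array, and pathway neighbours were named if beyond 1 on both arrays; neighbours named as partners of these were chosen after their values were seen. The genes and lists were chosen with earlier results of these data known. Alternatives were common scaling, quantile normalization, no centring, the median over probes and probes on both arrays only. Further ones were genes with discordant probes left out, query regions kept, robust eBayes and single arrays.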

Additional observations from a re-analysis of the deposited data

How the results depend on the processing

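Scaling was the choice that moved calls: limma called 0 genes as centred, 456 with both arrays at the same median absolute deviation and 434 with quantile normalization, of which 2 and 3 were among the 26 genes and 3 and 4 among the pathway neighbours. The other 6 settings that could be tested left 0 calls in each set. As centred, 1 of the 26 genes had a ratio of at least 1 on both arrays, and 2 had under either scaling (*SEC61* and *SEC27*). By single array this count ran from 1 to 3 for the 26 genes and from 4 to 9 for the neighbours, and the count at or below -1 ran from 0 to 1 in both. Without centring, the median of all genes was -0.17, and class medians were -0.26 (translocon), 0.0050 (COPI), -0.31 (COPII), -0.36 (SNARE), -0.18 (cargo receptors) and -0.29 (essential genes). The COPI median was 0.185 after common scaling and 0.187 after quantile normalization. Single arrays gave -0.093 to -0.059 for the translocon, 0.18 to 0.19 for COPI, -0.24 to -0.031 for COPII, -0.17 to -0.053 for SNARE genes, -0.067 to -0.023 for cargo receptors, -0.067 to -0.011 for essential and -0.27 to 0.049 for viable genes. Among the 10 lowest and highest genes, 2 had another sign on array 1 alone than by mean. *SEC26* was at 0.0017 there and -1.04 on array 2, and *SEC28* at 0.081 and -0.94. Over all 26 genes, 12 had opposite signs on the arrays. No other setting turned the sign of the 10 lowest and highest genes. No paired analysis was possible because both arrays belong to 1 group. A single array leaves no residual degrees of freedom, so no calls were made that way. Signal over background was not analysed here, and what it limits is not known.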

Other observations

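Some genes of the early secretory pathway have values that enter no comparison above. *SEC65*, an SRP subunit gene, was at -1.05 and *SEC11*, the catalytic subunit gene of signal peptidase, at -0.85 on array 1, with no value on array 2. *ERD2*, the receptor gene for HDEL retrieval, was at -0.061 on array 1 alone. Near the loci kept out of the tests, *IRE1*, encoding the sensor of the unfolded protein response, stood at -0.14 and 0.25, *SRP68* at 0.076 and -0.15 and *SRP72* at -0.24 and 0.019. Chosen after its values were seen, *CHS7*, encoding an ER export chaperone of chitin synthase III, was the lowest pathway neighbour by mean, at -0.62 on array 1 and -2.25 on array 2 (mean -1.44 ± 1.15, limma adjusted p = 0.317), and its 2 probes on array 2 were far apart, at -0.85 and -3.65. *SRP14*, chosen in the same way, stood at 0.71 and 2.96 (mean 1.83 ± 1.60, limma adjusted p = 0.330), above *SRP21* by mean but with a wider gap between arrays. *ERV46* and *ERV41*, genes of a receptor complex that returns soluble proteins to the ER, had means of -0.67 ± 0.0046 and -0.51 ± 0.58, and were chosen after their values were seen.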
